A study of Mus musculus with 6 samples.

Results

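The genes described here are 10 enzymes that make double bonds in fatty acids or lengthen their chains. They are the desaturases *Scd1*, *Scd2*, *Fads1*, *Fads2* and *Fads3*, and the elongation enzymes *Elovl1*, *Elovl5*, *Elovl6*, *Elovl7* and *Hacd3*. They were taken by symbol from a table of 22554 genes, and all 10 were among the 14124 genes whose counts were high enough to test. RNA was sequenced from group 2 innate lymphoid cells (ILC2s) sorted from the lungs of wild-type BALB/cByJ mice, female by the methods and 8 weeks old by the labels. All mice had received 3 intranasal doses of 0.5 µg recombinant mouse IL-33, and the sorted cells of both groups were cultured for 24 h at 50000 cells per mL with rmIL-2 and rmIL-7 at 10 ng/mL each. CD200-Fc, the ligand of the receptor CD200R joined to an antibody Fc part, was added to 3 samples (replicates 35, 36 and 38), and an isotype control to the other 3 (replicates 16, 17 and 18). Legends of the study also list rmIL-33 among the additions, and its methods for RNA-seq leave it out. The culture addresses which genes of activated ILC2s (aILC2s) change when CD200R is engaged. No source used here names the mouse or culture behind each sample, so the p-values rest on how far the samples of a group differ, and that may be technical variation only.

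Fatty acids are made as saturated chains and are then remodelled in the endoplasmic reticulum. Stearoyl-CoA desaturases (SCDs) place the first double bond in a saturated chain. FADS enzymes add further double bonds to polyunsaturated chains taken from the diet, and elongation runs as a cycle of 4 reactions in which an ELOVL enzyme takes the first step and a HACD dehydratase the third. In liver, many of these genes are switched on by the sterol-sensing factors SREBP1 and SREBP2 and by the oxysterol receptor LXR. Unsaturated chains keep membranes fluid, can be stored in lipid droplets, and are the source of eicosanoids.

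*Scd1* and *Scd2* are close paralogs, and their reads can be hard to tell apart. In mm10, *Scd2* lies on chromosome 19 from 44293674 to 44306864 on the plus strand and *Scd1* on the same chromosome from 44394455 to 44407879 on the minus strand. Their coding sequences, from the GENCODE M21 transcripts, were identical at 962 of 1074 aligned positions (89.6%), with a longest identical run of 147 nt. The stretch around that run is printed to show how little separates the pair there. It is 197 nt long, and capitals mark the 2 bases that differ. It covers coding positions 498 to 694 of *Scd1* and 507 to 703 of *Scd2*, counted from the start codon.
Scd1: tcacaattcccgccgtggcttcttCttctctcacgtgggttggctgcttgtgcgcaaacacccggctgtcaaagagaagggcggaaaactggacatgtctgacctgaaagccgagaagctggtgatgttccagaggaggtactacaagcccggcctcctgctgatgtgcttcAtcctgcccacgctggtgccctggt
Scd2: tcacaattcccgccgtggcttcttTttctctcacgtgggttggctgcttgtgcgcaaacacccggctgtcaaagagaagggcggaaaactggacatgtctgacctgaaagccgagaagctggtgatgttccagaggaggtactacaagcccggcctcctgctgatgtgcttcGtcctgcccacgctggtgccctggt

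Most of each transcript lies outside this stretch. Of the windows of 50 nt in the longest transcript, 223 of 4783 (4.66%) of *Scd1* and 217 of 5406 (4.01%) of *Scd2* occurred in a transcript of another gene as well. With windows of 75 nt these shares were 3.24% and 1.80%. Besides each other, both genes of the pair shared windows with *Scd3* and *Scd4*, and *Scd3* is not among the 22554 genes. The *Fads* and *Elovl* genes are less alike: the most similar pair, *Fads2* and *Fads3*, had coding sequences identical at 69.7% of aligned positions and 5 shared windows of 50 nt. The deposited counts of *Fads2*, *Fads3*, *Elovl7* and *Hacd3* were whole numbers within 0.005 in 6 of 6 samples. Those of *Scd1*, *Scd2* and *Fads1* were whole in 0 of 6, and those of *Elovl1*, *Elovl5* and *Elovl6* in 1, 1 and 3 of 6. *Fads1* had 0 shared windows of 50 nt, and its counts lay close to whole numbers (the farthest was 2056.04 in CD200-Fc replicate 38). Those of *Scd1* and *Scd2* lay farther off in some samples, such as 115.455 and 6626.19 in CD200-Fc replicate 36. In that sample *Scd4* had 5.43 counts.

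Among the desaturases, *Scd2* and *Fads2* rose with CD200-Fc, *Scd1*, *Fads1* and *Fads3* had positive estimates that did not pass the test, and the median log2 fold change of the 5 was 0.89, against -0.0035 over all 14124 genes tested. Among the 5 elongation enzymes *Hacd3* fell, 4 did not pass, and the median was -0.08. A gene was called at an edgeR quasi-likelihood adjusted p under 0.05, and 293 of the 14124 genes (2.07%) were called. The 2 members called higher stand beside 209 genes (1.48%), and the 1 called lower beside 84 genes (0.595%). On the deposited normalized signal, limma with a pseudocount of 1 called 203 genes higher and 163 lower, and the same 3 members. In 6 of the 10 members no CD200-Fc sample overlapped an isotype sample, 5 of them above and 1 below, which was so for 22.8% of all genes (11.6% above and 11.2% below). Before adjustment, 5 members were higher and 1 lower at p under 0.05 in edgeR, beside 17.1% of all genes (9.43% higher and 7.69% lower). Both counts of 5 include *Scd1*, whose few counts may hold reads of *Scd2*.

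*Scd2*, the stearoyl-CoA desaturase that predominates in brain and in many cultured cells, had 227, 202 and 209 CPM (counts scaled to a common library size) in CD200-Fc replicates 35, 36 and 38, against 114, 78.6 and 101 CPM in isotype replicates 16, 17 and 18. Every CD200-Fc sample lay above every isotype sample, and the lowest CD200-Fc value was 1.77 times the highest isotype value. The log2 fold change was 1.12 with a standard error (SE) of 0.10 (95% interval 0.90 to 1.34 on the log2 scale, edgeR adjusted p = 0.000175). This call held in 20 of 20 other fits, and without 1 library the log2 fold change lay between 0.99 and 1.24.

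*Scd1*, the main stearoyl-CoA desaturase of liver and fat, was the minor of the pair. It had 5.00, 3.50 and 4.27 CPM with CD200-Fc and 2.53, 2.37 and 1.94 CPM with isotype, which rest on 103 to 127 counts per CD200-Fc library and 39 to 59 per isotype library. The groups did not overlap, and the log2 fold change of 0.89 (SE 0.26, 95% interval 0.34 to 1.44) did not pass after adjustment (edgeR adjusted p = 0.0863). *Scd2* had 1594 to 6626 counts per library, and 4.01% of its windows of 50 nt also occur in other genes. How many of the few *Scd1* counts came from reads of *Scd2* was not tested, so the 2 changes may not be separate. *Scd1* held 1.71% to 2.15% of the counts of the pair with CD200-Fc and 1.88% to 2.92% with isotype, so the 2 ranges overlapped. The log2 ratio of *Scd2* to *Scd1* was 5.66 ± 0.18 with CD200-Fc and 5.42 ± 0.33 with isotype (SD, n = 3 each; difference 0.24, two-sided exact permutation p = 0.4). Summed over both genes, a value that does not depend on how reads were divided between them, the level was 232, 205 and 213 CPM with CD200-Fc and 116, 81.0 and 103 CPM with isotype. The groups of sums did not overlap, the log2 difference was 1.13, and the two-sided exact permutation p of 0.1 is the smallest that 3 samples against 3 allow.

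*Fads2*, the desaturase that starts the conversion of dietary linoleic and alpha-linolenic acid, had the largest log2 fold change of the 10. It had 13.1, 9.91 and 7.87 CPM in CD200-Fc replicates 35, 36 and 38, against 4.20, 3.16 and 2.04 CPM in isotype replicates 16, 17 and 18, from 190 to 333 counts per CD200-Fc library and 41 to 98 per isotype library. Both groups spread widely around their means, and the lowest CD200-Fc sample was still 1.88 times the highest isotype sample. The log2 fold change was 1.71 (SE 0.26, 95% interval 1.16 to 2.26, edgeR adjusted p = 0.00494), and it kept its call in 19 of 19 other fits that gave an adjusted p. DESeq2 gave none at this low count, and without CD200-Fc replicate 35 the adjusted p from edgeR was 0.0460.

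*Fads1*, the desaturase that acts after *Fads2* on the way to arachidonic acid, lies on the same chromosome and ran at a higher level. It had 84.4, 83.7 and 85.2 CPM with CD200-Fc, against 79.4, 60.1 and 71.0 CPM with isotype. The CD200-Fc samples were close together and above all isotype samples, which spread more, and the log2 fold change of 0.27 (SE 0.09) did not pass (edgeR adjusted p = 0.136). With DESeq2 it did, at an adjusted p of 0.0444. The log2 ratio of *Fads2* to *Fads1* was -3.07 ± 0.37 with CD200-Fc and -4.54 ± 0.51 with isotype (SD, n = 3 each), a difference of 1.47 with no overlap and a two-sided exact permutation p of 0.1, again the smallest possible. *Fads3*, which desaturates sphingoid bases, was near the lower end of the range, at 27 to 41 counts with CD200-Fc and 13 to 25 counts with isotype. Its groups overlapped (log2 fold change 0.63, SE 0.47, edgeR adjusted p = 0.541).

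**Figure D1:**
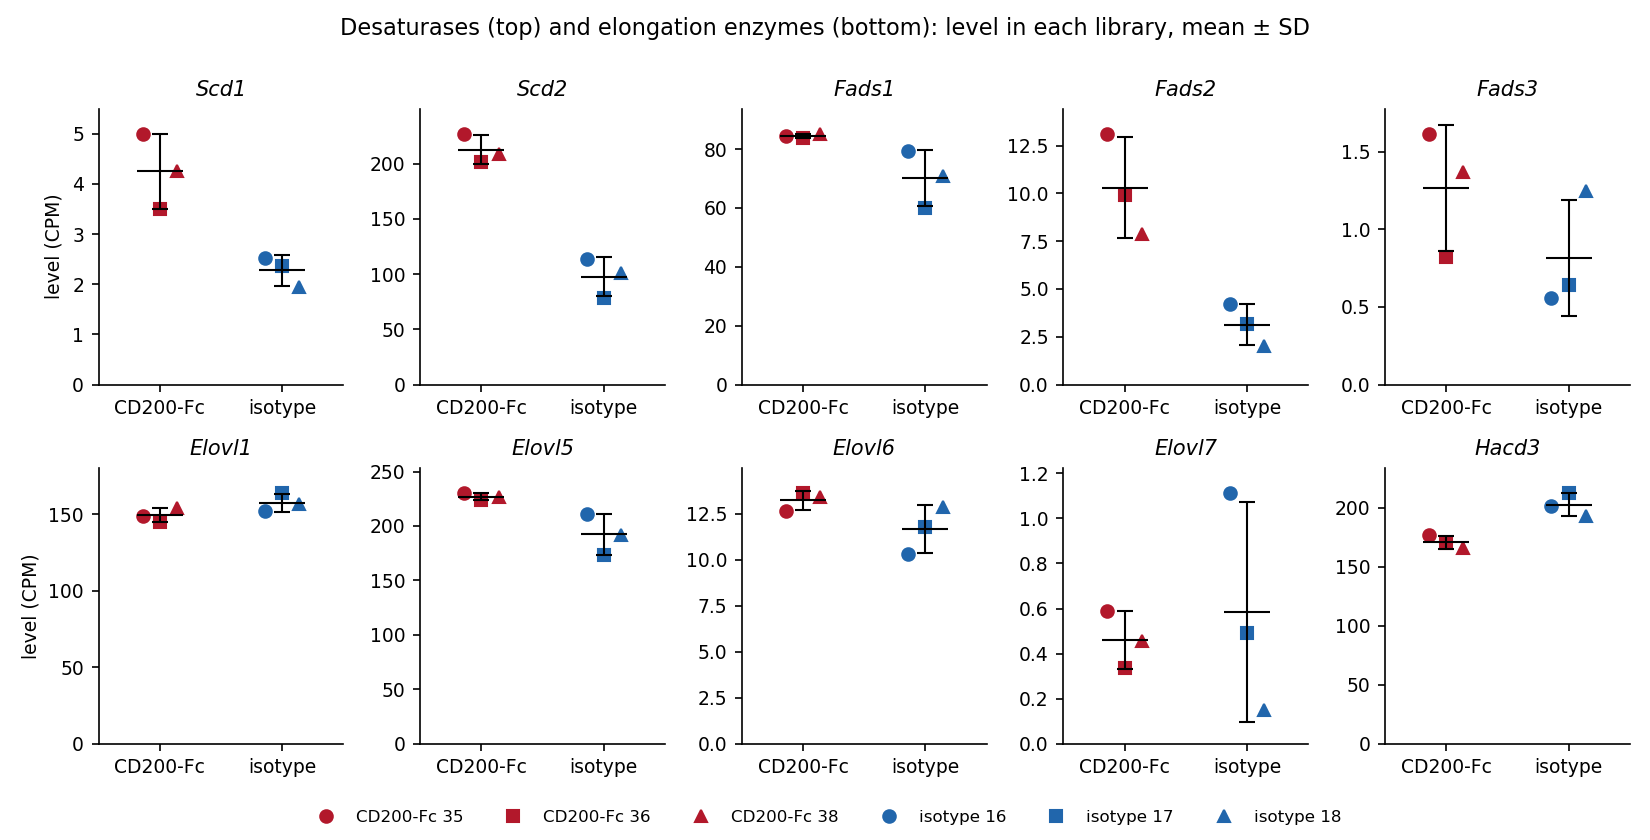
Level of each of the 10 genes in each library, in CPM (linear axis from 0, scaled per gene), with CD200-Fc on the left and isotype on the right of each panel. Symbols are single libraries, and the horizontal line and bars are the mean and SD of 3. The CD200-Fc points of *Scd1*, *Scd2*, *Fads1*, *Fads2* and *Elovl5* all lie above the isotype points, those of *Hacd3* all lie below, and the other 4 genes overlap.

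Of the elongases, *Elovl5* and *Elovl1* were expressed at high levels and *Elovl6* and *Elovl7* at low ones. *Elovl5*, which lengthens the polyunsaturated products of FADS enzymes, had 230, 224 and 226 CPM with CD200-Fc, against 211, 174 and 192 CPM with isotype. As with *Fads1*, the CD200-Fc samples lay close together and above the isotype samples. The log2 fold change was 0.24 (SE 0.07, 95% interval 0.10 to 0.38) and did not pass in edgeR (adjusted p = 0.0797). It passed in DESeq2 (adjusted p = 0.0120) and in edgeR without isotype replicate 16, the highest isotype sample (log2 fold change 0.31, adjusted p = 0.0289).

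*Elovl1*, which makes very long saturated chains for ceramides, had 149, 145 and 154 CPM with CD200-Fc, against 152, 164 and 157 CPM with isotype, and the groups overlapped (log2 fold change -0.08, SE 0.06, 95% interval -0.20 to 0.04, edgeR adjusted p = 0.538). Its locus on chromosome 4 overlaps *Cdc20* on the opposite strand, whose log2 fold change was -0.03. No source used here says whether counting used strand, so reads of the 2 genes may be mixed where they overlap. *Elovl6*, which takes palmitate to stearate and so feeds the SCD step, had 12.6, 13.6 and 13.4 CPM with CD200-Fc and 10.3, 11.8 and 12.9 CPM with isotype (log2 fold change 0.18, SE 0.14, 95% interval -0.11 to 0.48, edgeR adjusted p = 0.542). Its groups overlapped by 1 isotype sample, and 4.59% of its windows of 50 nt also occur in transcripts of other genes.

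*Elovl7*, an elongase of long saturated chains, was the lowest of the 10, with 11 to 15 counts per CD200-Fc library and 3 to 26 per isotype library. The isotype samples alone covered the whole range of the CD200-Fc samples, and the log2 fold change of -0.38 (SE 0.64, edgeR adjusted p = 0.822) has a 95% interval of -1.75 to 0.99, so no change of this gene was detectable in these samples. Without isotype replicate 16, which held the 26 counts, its estimate turned to 0.50.

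*Hacd3*, a dehydratase of the elongation cycle, had 176.5, 170.3 and 165.6 CPM in CD200-Fc replicates 35, 36 and 38, against 201.7, 212 and 193 CPM in isotype replicates 16, 17 and 18. All CD200-Fc samples lay below all isotype samples, and the log2 fold change was -0.25 (SE 0.06, 95% interval -0.37 to -0.12, edgeR adjusted p = 0.0411). Of the 3 calls it lay nearest to the threshold, and it was the only 1 lost when a library was left out. It did not pass in any of the 6 fits without 1 library, with adjusted p from 0.0692 without isotype replicate 16 to 0.149 without CD200-Fc replicate 38. The estimate kept its size in these fits, between -0.27 and -0.21. With offsets for GC content and transcript length the adjusted p was 0.0614.

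**Figure D2:**
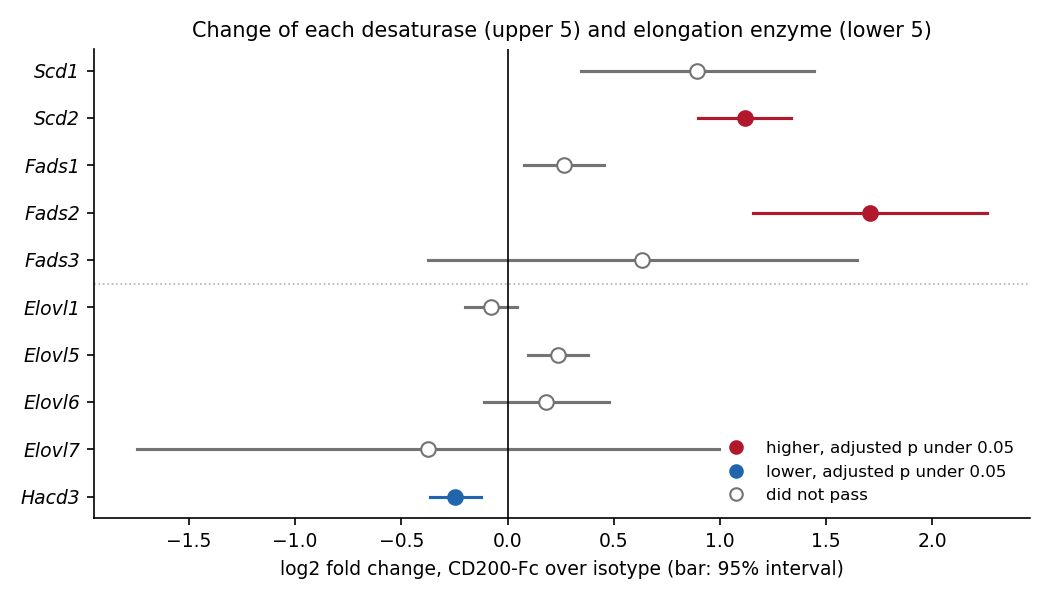
Log2 fold change of CD200-Fc over isotype for each of the 10 genes, with the 95% interval of the edgeR fit as a horizontal bar. Filled red and blue points passed the adjusted p threshold of 0.05 as higher (*Scd2* at 1.12, *Fads2* at 1.71) and lower (*Hacd3* at -0.25), open points did not, and *Elovl7* has the widest interval.

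Levels between genes were compared per kilobase of the longest annotated transcript. With CD200-Fc the order was *Elovl1* at 82.5 CPM per kb, *Elovl5* at 81.6, *Hacd3* at 63.1, *Scd2* at 38.9 and *Fads1* at 24.4. The other 5 followed far below, from *Fads2* at 3.27 CPM per kb through *Elovl6* at 2.22, *Scd1* at 0.880 and *Fads3* at 0.344 to *Elovl7* at 0.115. Here the samples of *Elovl1* and *Elovl5* overlapped and all other neighbours were separate. With isotype the order was *Elovl1* at 87.1 CPM per kb, *Hacd3* at 74.7, *Elovl5* at 69.1, *Fads1* at 20.3, *Scd2* at 17.9, *Elovl6* at 1.96, *Fads2* at 0.994, *Scd1* at 0.472, *Fads3* at 0.221 and *Elovl7* at 0.146. Neighbours whose isotype samples overlapped were *Hacd3* with *Elovl5*, *Fads1* with *Scd2*, and *Fads3* with *Elovl7*. *Elovl5* stood above *Hacd3*, *Scd2* above *Fads1* and *Fads2* above *Elovl6* with CD200-Fc, and each of these pairs had the other order with isotype.

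The samples carried the RNA of the sorted cell type. All 12 ILC2 markers were listed, with *Il5* the most abundant, and they summed to 10800 to 10900 CPM with CD200-Fc and 10400 to 10600 CPM with isotype. For adipocytes and eosinophils, 0 of 4 and 0 of 3 markers were listed. Macrophage markers (4 of 6 listed) summed to 0 to 11.6 CPM with CD200-Fc and 0.642 to 3.08 CPM with isotype, with *Lyz2* at 9.78 CPM in CD200-Fc replicate 38. Of 6 markers of alveolar type 2 epithelium, *Sftpc* and *Sftpa1* were at 0 in every library, and the sum of 29.9 to 35.3 CPM with CD200-Fc and 24.8 to 26.0 CPM with isotype was almost entirely *Epcam*. T cell markers summed to 24.7 to 28.3 CPM with CD200-Fc and 25.5 to 29.2 CPM with isotype, mostly *Cd3g*. *Pecam1*, the 1 of 3 endothelial markers listed, was at 20.6 to 26.3 CPM with CD200-Fc and 18.5 to 23.6 CPM with isotype. Mast cell and basophil markers summed to 3.71 to 7.60 CPM with CD200-Fc and 2.24 to 5.52 CPM with isotype. Fibroblast, B cell and neutrophil markers summed to at most 1.13 CPM in any library. The part of these other cells in the differences was not tested, and in bulk RNA fewer cells of a type and less RNA per cell cannot be told apart. Library totals were 24038189 to 33321709 counts with CD200-Fc and 20096555 to 23239853 with isotype.

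Around the 10 genes, 75 tested genes of 9 further lists (the other enzymes of the same reactions, their supply, their control and neighbouring lipid pathways) were counted. Of these 10 were called higher (13.3%, beside 1.48% of all genes) and 0 lower (beside 0.595%), 55 had a positive estimate, and the median log2 fold change was 0.12. At an unadjusted p under 0.05 in edgeR, 30 were higher and 2 lower (*Rxra*, the partner of LXR, and *Tecr*), beside 9.43% and 7.69% of all genes, and DESeq2 called 1 lower, *Tecr*. These lists were chosen with results of these libraries known, so the counts describe them and are no independent evidence.

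The remaining enzymes of desaturation and elongation did not pass in edgeR or limma, and DESeq2 called *Tecr* (adjusted p = 0.0312). Of 12, 5 were tested, with a median log2 fold change of -0.17. *Tecr*, the reductase of the last step of the elongation cycle, averaged 192 ± 5.38 CPM with CD200-Fc and 220 ± 15.6 CPM with isotype (SD, n = 3 each; log2 fold change -0.19, SE 0.06, edgeR adjusted p = 0.110). *Hsd17b12*, the reductase of the second step, averaged 118 ± 1.34 CPM with CD200-Fc and 107.5 ± 4.36 CPM with isotype (log2 fold change 0.14, SE 0.06, edgeR adjusted p = 0.253). At an unadjusted p under 0.05 these 2 passed, 1 in each direction. *Tecr*, like *Hacd3*, had every CD200-Fc sample below every isotype sample, and *Hsd17b12* had the reverse. *Scd4*, *Fads6*, *Elovl2* and *Elovl4* had at most 17 counts in any library and were not tested. Desaturases take electrons from cytochrome b5 and its reductases, of which 5 were tested and 0 called in edgeR (1 at an unadjusted p under 0.05, 1 in DESeq2 and 0 in the limma fits). *Cyb5b* was the nearest to a call (log2 fold change 0.17, adjusted p = 0.111, and 0.0303 in DESeq2), and *Cyb5r4* came next (0.10, adjusted p = 0.512).

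Among genes that supply the substrates, 1 of 7 acyl-CoA synthetases and binding proteins and 1 of 8 genes of palmitate supply were called higher. *Acsl3*, an acyl-CoA synthetase of lipid droplets and the endoplasmic reticulum, had 48.8, 58.3 and 48.6 CPM with CD200-Fc, against 35.9, 31.4 and 33.8 CPM with isotype (log2 fold change 0.62, SE 0.10, edgeR adjusted p = 0.00619). *Acly*, which makes cytosolic acetyl-CoA, had 399, 378 and 362 CPM with CD200-Fc, against 317.5, 298.5 and 294 CPM with isotype (log2 fold change 0.32, SE 0.05, edgeR adjusted p = 0.00985). In both genes every CD200-Fc sample was above every isotype sample. *Acsl4*, which prefers arachidonic acid (log2 fold change 0.29), *Acbd3* (0.25), *Fasn*, the fatty acid synthase (0.37), and *Mid1ip1* (0.22) did not pass in edgeR, with adjusted p from 0.0633 to 0.105. DESeq2 called *Acsl4* (adjusted p = 0.0104), *Acbd3* (0.0272) and *Mid1ip1* (0.0319), and limma-voom and limma-trend with a pseudocount of 1 called *Fasn*. *Acly* was lost without CD200-Fc replicate 35 (adjusted p = 0.0725) and without isotype replicate 18 (0.0502).

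Of 11 genes of SREBP and LXR control, *Insig1* was called. It encodes the protein that holds SREBPs in the endoplasmic reticulum and is itself an SREBP target, and it had 127.5, 127.0 and 123 CPM with CD200-Fc, against 93.2, 88.7 and 87.8 CPM with isotype (log2 fold change 0.48, SE 0.06, edgeR adjusted p = 0.00112). The samples of each group lay close together, far from those of the other. The factors themselves, *Srebf1* (log2 fold change 0.15, adjusted p = 0.207) and *Srebf2* (0.12, adjusted p = 0.245), did not pass. The LXR gene *Nr1h2* averaged 94.6 CPM with CD200-Fc and 95.6 CPM with isotype, and the LXR gene *Nr1h3* averaged 0.416 CPM with CD200-Fc and 0.438 CPM with isotype.

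Of 8 LXR targets outside desaturation, 2 were called higher. *Abcg1*, a cholesterol exporter, averaged 24.2 ± 2.24 CPM with CD200-Fc and 14.9 ± 1.85 CPM with isotype (SD, n = 3 each; log2 fold change 0.69, SE 0.13, edgeR adjusted p = 0.0156). It lost its call without CD200-Fc replicate 35 (adjusted p = 0.0891), CD200-Fc replicate 36 (0.0531) or isotype replicate 18 (0.0597). *Abca1*, another cholesterol exporter, had a log2 fold change of 1.17 (SE 0.30) at 5.36 CPM with CD200-Fc and 2.40 CPM with isotype, and did not pass (edgeR adjusted p = 0.0641).

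Of 20 tested genes of cholesterol synthesis and uptake, 6 were called higher and 0 lower, with a median log2 fold change of 0.25. Among them were *Cyp51* (0.35), *Idi1* (0.33), *Lss* (0.32) and *Fdps* (0.30), which act at successive stages of sterol synthesis. The adjusted p of these 4 in edgeR lay between 0.00985 and 0.0393, and in each of the 4 every CD200-Fc sample was above every isotype sample. *Hmgcs1* (0.33, adjusted p = 0.0520) and *Fdft1* (0.31, adjusted p = 0.0687) did not pass in edgeR. DESeq2 called both (adjusted p = 0.00342 and 0.0104), and limma-voom, limma-trend with a pseudocount of 1 and edgeR with robust dispersions called *Hmgcs1*. These 4 calls were lost more often without single libraries than those of *Insig1* and *Acsl3*, which passed without each of the 6 in turn. *Idi1* was lost without CD200-Fc replicate 36 (adjusted p = 0.0517). Of these 6 fits, *Lss* passed only the 1 without isotype replicate 16, and *Cyp51* only those without isotype replicate 16 or isotype replicate 17. Among the fits without 1 library, *Fdps* passed without CD200-Fc replicate 36 or isotype replicate 17. With offsets for GC content and transcript length, *Fdps* (adjusted p = 0.101) and *Lss* (0.0908) did not pass. The highest adjusted p was 0.0803 for *Cyp51*, 0.132 for *Fdps* and 0.176 for *Lss*.

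Genes that place acyl chains in lipids (11 tested) and the peroxisomal genes that finish docosahexaenoic acid (4 tested) had 0 calls in edgeR and in the limma fits. DESeq2 called 1 of them, *Soat1*. At an unadjusted p under 0.05, 2 and 0 of them were higher, and the medians were 0.10 and 0.01. *Soat1*, which esterifies cholesterol, was nearest to a call with 92.4 ± 2.84 CPM with CD200-Fc and 73.1 ± 10.1 CPM with isotype (SD, n = 3 each; log2 fold change 0.34, SE 0.09, edgeR adjusted p = 0.0645). *Dgat1*, which makes triglycerides (0.26, adjusted p = 0.199), and *Scp2* (-0.03, adjusted p = 0.834) did not pass either.

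**Figure D3:**
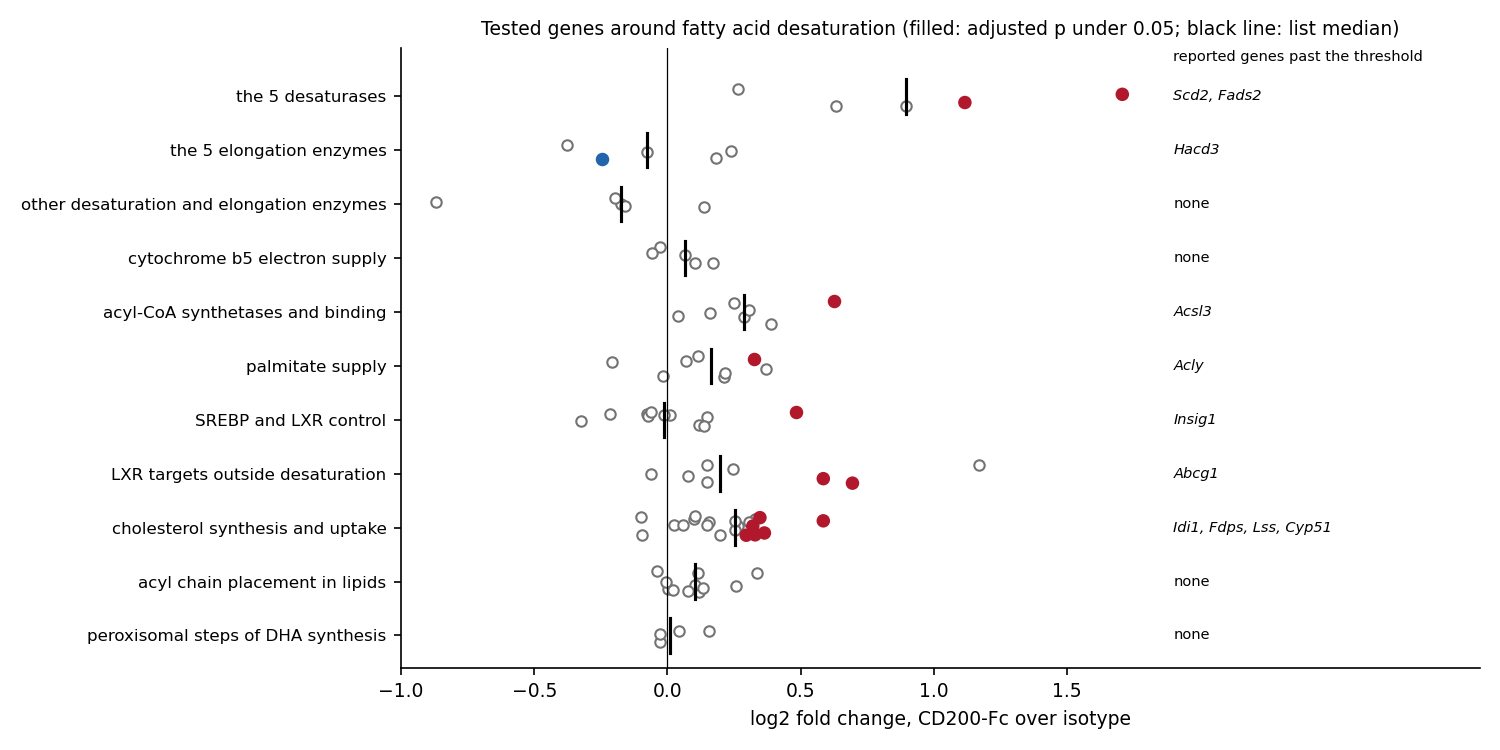
Log2 fold change of CD200-Fc over isotype for each tested gene (horizontal axis) by list (rows, spread vertically to separate points). Filled points passed an adjusted p of 0.05 in edgeR (red higher, blue lower), with those reported here named at the right, open points did not pass, and the black line is the median of the list, from 0.89 for the 5 desaturases to -0.17 for the other desaturation and elongation enzymes.

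**Figure D4:**
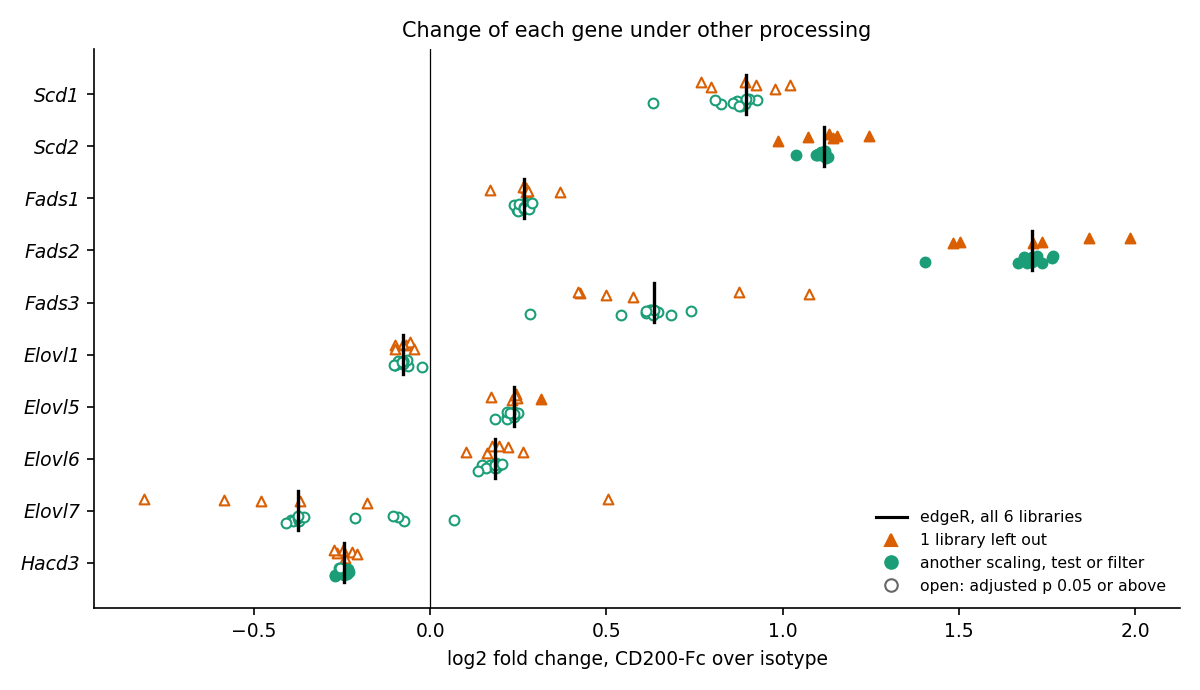
Log2 fold change of each of the 10 genes under other processing. The black line is the edgeR fit to all 6 libraries, triangles are fits without 1 library, circles are fits with another scaling, test or filter, and filled symbols passed an adjusted p of 0.05. *Scd2* and *Fads2* were filled throughout, *Hacd3* was open in every fit without 1 library, and *Elovl7* crossed 0.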

How the data were processed

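RNA-seq of 6 samples of cultured lung aILC2s was analysed, 3 with CD200-Fc and 3 with isotype control. The authors demultiplexed with bcl2fastq 2.17.1.14 and aligned to mm10 with STAR 2.5.3a, per the labels. Expected counts per gene were deposited by the authors as estimated in Partek by expectation maximization, which divides reads that fit several genes. The annotation release and read length are not given in the sources used here. A second table of normalized signal for 17194 genes was deposited. Its values equal the expected count plus 1 times 1 factor per sample, within 0.1% for 100% of values, and it was used only as an alternative.

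Expected counts were rounded, filtered by filterByExpr and scaled by TMM. The test was the quasi-likelihood F test in edgeR 4.0.16 (R 4.3.3), with Benjamini-Hochberg adjustment over 14124 genes and all 6 samples in 1 fit. CPM use TMM-scaled library sizes, and the common coefficient of biological variation was 10.8%. Single values were compared by the exact permutation test over 20 splits (scipy 1.17.1). Intervals cover the spread between samples. In data simulated for this comparison over 14124 genes, changes were placed only in genes whose log2 CPM averaged at least 2. The fit found 77% of 100 such genes with a 1.5-fold change and 97% of 100 with a 2-fold change. It also called 16 of the 13924 genes left unchanged. *Scd1*, *Fads3* and *Elovl7* lay below that level, so these shares do not cover them. Changes smaller than 1.5-fold, such as the estimates of *Fads1*, *Elovl1*, *Elovl5*, *Elovl6* and *Hacd3*, were not simulated. Gene lengths, sequences and positions come from GENCODE M21.

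The 10 members and all lists were chosen with earlier results of these data known. All members are named, and from each other list the called genes and up to 2 more with the smallest p, plus the 5 genes whose log2 CPM correlated best with *Scd2*. *Nr1h2*, *Nr1h3* and *Rxra* were added after their values were seen. The counts include a few genes that are left out of the text. Alternatives were other scalings (upper quartile, totals, DESeq2 size factors), DESeq2 1.42.0, limma 3.58.1 (voom with and without quality weights, and trend on log2 of the deposited signal plus a pseudocount of 1 or 0.1), robust dispersions, unrounded counts, no filter, a minimum of 10 counts in every sample, thinning to the smallest library, GC and length offsets, and leaving out each library.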

Additional observations from a re-analysis of the deposited data

How the results depend on the processing

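*Scd2* and *Fads2* were called in every fit that gave them an adjusted p, and no setting changed the direction of a member except for *Elovl7*, which was 0.068 in limma-voom with quality weights and -0.81 to 0.50 without each library, positive without isotype replicate 16. Without each library, the log2 fold change was 0.17 to 0.37 for *Fads1*, 0.42 to 1.07 for *Fads3*, -0.10 to -0.05 for *Elovl1*, 0.17 to 0.31 for *Elovl5* and 0.10 to 0.26 for *Elovl6*. Over the other settings *Fads3* ranged from 0.28 to 0.74 and *Elovl1* from -0.10 to -0.02. DESeq2 gave *Scd1*, *Fads2*, *Fads3* and *Elovl7* no adjusted p, and *Elovl7* did not pass the filter of 10 counts in every sample. The members called lower were 0 with GC and length offsets and 0 without each library. Members called higher were 2 to 3 without each library. Over all genes the counts were 569 higher and 312 lower with DESeq2, 316 and 134 with at least 10 counts in every sample, and 136 higher with GC and length offsets. They were 163 and 144 lower with limma-trend on the deposited signal at pseudocounts of 1 and 0.1, where 55.5% and 56.2% of calls were higher, against 71.3% in edgeR. Without each library they ranged from 27 to 229 higher and from 17 to 83 lower. The higher calls were 27, 51 and 50 without CD200-Fc replicates 35, 36 and 38, 98 and 76 without isotype replicates 17 and 18, and 229 without isotype replicate 16. The 10 called genes of the other lists became 19 with DESeq2, 8 with GC and length offsets and 4 to 12 without each library. The cause was not tested. The log2 difference between groups without each library was 0.06 to 0.38 for the ratio of *Scd2* to *Scd1*, 1.18 to 1.66 for that of *Fads2* to *Fads1* and 0.98 to 1.25 for the summed SCD level. No paired analysis was possible because no source used here names the mouse or culture behind each sample. *Fads3* and *Elovl7* rest on 3 to 41 counts per library.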

Other observations

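Across the 6 libraries, the genes whose log2 CPM ran most like *Scd2*, among the 10142 genes whose log2 CPM averaged at least 2, included *Calu* (Pearson r = 0.998), *Ets1* (0.996), *Lrrn4* (0.996) and *Slf2* (0.995). *Calu* encodes a calcium-binding protein of the endoplasmic reticulum and *Ets1* a lymphoid transcription factor. These correlations include the difference between the groups and are given as a description over 6 samples that share 2 treatments. The log2 fold changes of these 4 were smaller than that of *Scd2*, from 0.36 for *Slf2* to 0.73 for *Lrrn4*. *Ets1* averaged 627 CPM with CD200-Fc and 444 CPM with isotype (log2 fold change 0.50, SE 0.07, edgeR adjusted p = 0.00243).

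Among the other members, r with *Scd2* was 0.946 for *Elovl5*, 0.916 for *Fads2*, 0.913 for *Scd1* and 0.905 for *Fads1*. It was 0.61 for *Fads3*, 0.56 for *Elovl6*, 0.07 for *Elovl7*, -0.80 for *Elovl1* and -0.94 for *Hacd3*. In the isotype group, replicate 16 was the highest and replicate 17 the lowest for *Scd2*, *Fads1* and *Elovl5*, and also for *Fasn*.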
